A study of Mus musculus with 2 samples.

Results

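The miR-23, miR-27 and miR-24 clusters were measured by the 11 array probes named for mmu-miR-23a, mmu-miR-23b, mmu-miR-27a, mmu-miR-27b or mmu-miR-24 (mmu for mouse), all arms included, of 1900 mouse miRNA probes. Both arrays hold total RNA of mononuclear cells isolated from the lamina propria of the colon, the connective tissue under the gut epithelium, of male Balb/c mice. One array came from germ-free mice, which carry no microbiota, and 1 from SPF (specific pathogen-free) mice, whose gut holds a microbiota without listed pathogens. The labels name no treatment, age, housing detail or number of animals per array, and no gate or purity of the isolate. With 1 array per group no difference has a replicate error, and no test between the groups was run.

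MicroRNAs of a cluster are cut from 1 primary transcript, and each hairpin yields a 5p and a 3p strand. The strand that is kept by Argonaute (the guide) pairs with target mRNAs through its seed, bases 2 to 8, and the other (the passenger) is mostly degraded. In these clusters the 3p strands are the guides. miR-23 is known to repress glutaminase and signal carriers of the IL-17 and NF-kappa B pathways, miR-27 to repress Foxo1, Pparg and, in T cells, Gata3, and miR-24 to repress cell cycle genes and, in T cells, Il4. Both clusters are active in endothelium and in lymphocytes, where they limit T helper type 2 responses.

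The a cluster lies on the plus strand at chr8:84208518-84208921 (GRCm38), where Mir23a, Mir27a and Mir24-2 occupy 404 bases. Mir23a and Mir27a lie outside other annotated genes in GENCODE M21, and the last 2 bases of Mir24-2 overlap an exon of the lincRNA Gm26532 on the same strand. The b cluster lies on the plus strand at chr13:63300484-63301275, where Mir23b, Mir27b and Mir24-1 occupy 792 bases within the protein-coding gene 2010111I01Rik, on its strand. Mir23b is intronic in 2010111I01Rik, while Mir27b and Mir24-1 overlap an exon of at least 1 of its transcripts. All of the b hairpins also lie in introns of Fancc, which is annotated on the opposite strand.

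RefSeq mature sequences (GRCm38.p6) matched 10 of the 11 probes by name, miR-23b-3p being the other. The guides are shown because they define what each probe can tell apart, with the seed in capitals.
miR-23a-3p: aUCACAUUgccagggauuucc
miR-27a-3p: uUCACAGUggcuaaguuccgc
miR-27b-3p: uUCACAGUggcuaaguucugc
miR-24-3p: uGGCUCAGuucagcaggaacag
miR-27a-3p and miR-27b-3p share the seed UCACAGU and differ at a single base, C19U, counted from 1 at the 5′ end with the miR-27a base first. Their probes may each capture both strands to an extent that was not tested. Whether the miR-23a-3p and miR-23b-3p probes capture each other's strand was likewise not tested. miR-24-3p has the same sequence from Mir24-2 and Mir24-1, so its single probe reads the sum of both clusters. The passengers of miR-24 come from separate clusters, and capture of each by the other's probe was not tested either. They are shown because they share the seed UGCCUAC and differ at 5 of the 22 positions compared.
miR-24-1-5p: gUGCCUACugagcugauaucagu
miR-24-2-5p: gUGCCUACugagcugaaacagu
No other mature mouse miRNA in the RefSeq table shares the seed of miR-23a-3p or that of the miR-27 guides. miR-23b-3p has no sequence there, so its seed could not be compared.

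The probes named for the miR-23 and miR-27 guides of both clusters were brighter on the SPF array than on the germ-free array, by 1.28-fold to 1.44-fold. The a and b probes may not be independent, since capture of the paralog's strand was not tested. miR-24-3p differed by less than the technical SD with the scaling used, and the passengers showed no common direction. Values are net intensities, the spot's median intensity minus the mean of the blank spots, with the SPF array multiplied by 0.849 so that the median of the 1471 miRNA probes above the floor on both arrays was equal. The floor, 2 SD above the blank mean, was a net intensity of 9.05 (germ-free) and 10.7 (SPF, before scaling). The technical SD of a log2 ratio, from 5 bright control probes with 8 spots per array, was 0.128. It covers spot-to-spot spread within an array and neither animals, RNA preparation nor hybridisation.

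**Figure D1:**
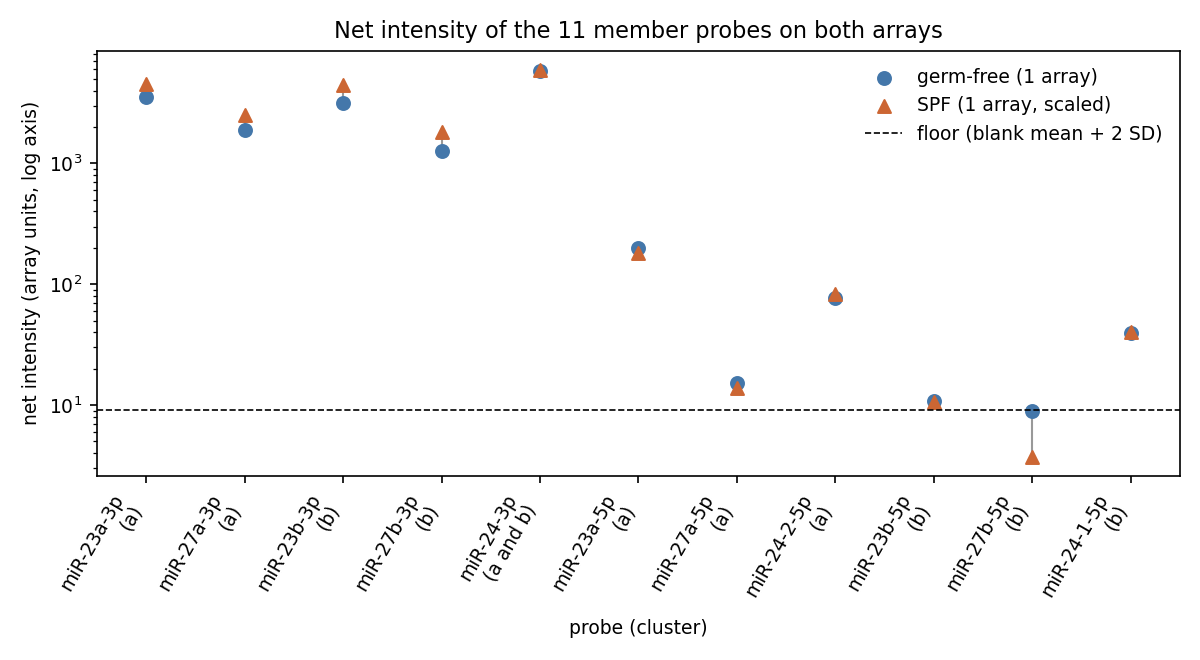
Net intensity (array units, log axis) of each of the 11 member probes in germ-free cells (circles) and, after scaling, SPF cells (triangles), 1 array per group, with the cluster of each probe in parentheses and the floor as a dashed line. The 5 guides lie between 1258 and 5920 and the 5p probes at 199.7 or below, with miR-27b-5p under the floor on both arrays.

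In the a cluster, miR-23a-3p had a net intensity of 3551 in germ-free and 4541 in SPF cells. This is a log2 SPF over germ-free of 0.35, or 1.28-fold. miR-27a-3p, the guide encoded next to it, had 1875 and 2502, a log2 value of 0.42 or 1.33-fold. Both values exceeded the technical SD of 0.128. The pair differed from each other by 0.06, within the technical SD of 0.182 for a difference of a pair of log2 ratios. With each block's median subtracted, miR-23a-3p was at 0.38 and miR-27a-3p at 0.60, a gap wider than that SD.

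In the b cluster, miR-23b-3p had a net intensity of 3141 in germ-free and 4465 in SPF cells. Its log2 value was 0.51, or 1.42-fold. miR-27b-3p had 1258 and 1810, a log2 value of 0.53 or 1.44-fold. The b guides differed from each other by 0.02, again within the technical SD. miR-23b-3p and miR-27b-3p occupy adjacent spots (block 6, row 1, columns 10 and 9), and the median log2 value of the 45 miRNA probes of that block above the floor on both arrays was -0.01.

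miR-24-3p, the product that both clusters share, was the brightest of the 11 probes on either array, at 5792 in germ-free and 5920 in SPF cells. Its log2 value of 0.03 lay within the technical SD of 0, and its sign turned to -0.01 without background subtraction, -0.06 with scaling on the spike controls and -0.39 with local background subtraction. It was 0.27 without scaling and 0.18 with each block's median subtracted, both above the technical SD.

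Among the 1471 miRNA probes above the floor on both arrays, 42.4% had a log2 value above 0 and 57.6% one below 0, and all 5 guides were above 0. The median of the 5 guides was 0.42, beside -0.06 for all 1471 probes and -0.07 for the 735 brighter than the median. No member was at least 1.5-fold higher, where 4.62% of the 1471 probes were, and none was at least 1.5-fold lower, where 7.61% were. At 2-fold the shares of all probes were 1.56% higher and 1.43% lower, again with no member among them. A log2 value at least as high as that of miR-27b-3p was found for 28 of the 735 brighter probes (3.81%), and one at least as high as that of miR-23b-3p for 29 (3.95%). For miR-27a-3p the number was 43 (5.85%), for miR-23a-3p 55 (7.48%) and for miR-24-3p 257 (34.97%). The 4 miR-23 and miR-27 guides therefore ranked high among the brighter probes without passing 1.5-fold, while miR-24-3p lay nearer the middle.

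**Figure D2:**
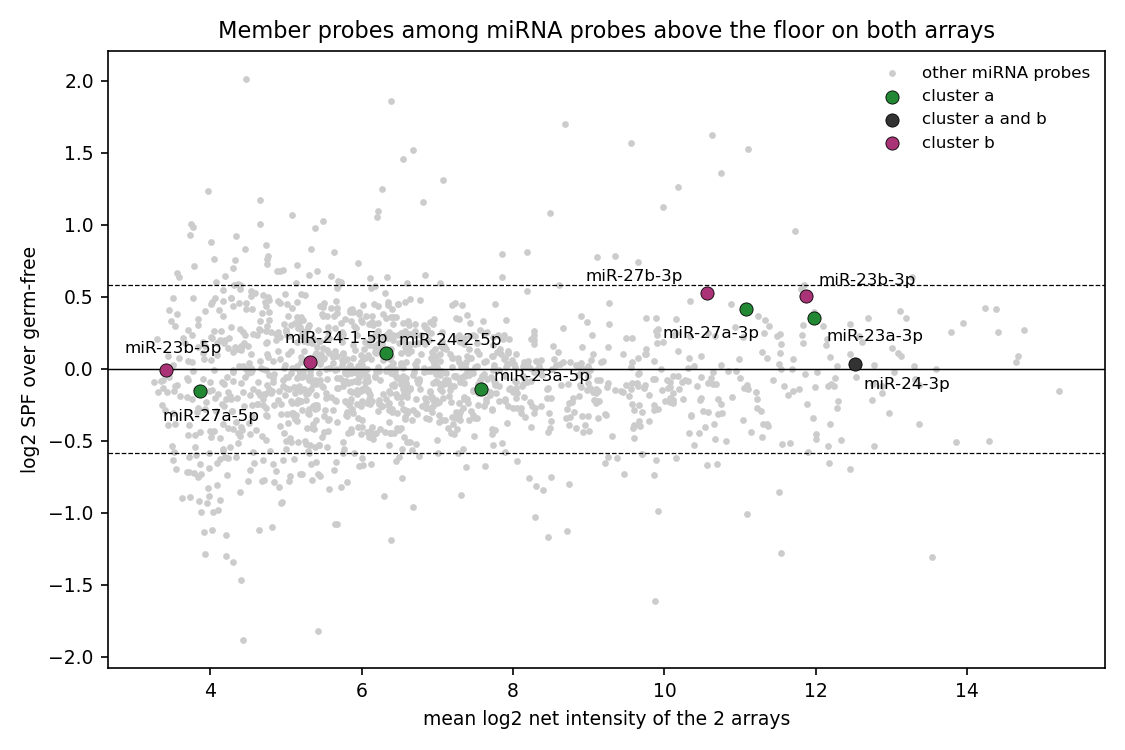
Log2 SPF over germ-free against the mean log2 net intensity of the 2 arrays for the 1471 miRNA probes above the floor on both arrays (grey), with the 10 member probes among them coloured by cluster. Dashed lines mark 1.5-fold, and the miR-23 and miR-27 guides lie between 0.35 and 0.53, under the upper line, with miR-24-3p at 0.03.

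The b guides had higher log2 values than their a paralogs, but by less than the technical SD, and for miR-27 the sign turned (-0.07) when each block's median was subtracted. For miR-23 the b minus a difference was 0.15 and for miR-27 it was 0.11, against a technical SD of 0.182. Read within each array, the miR-23b-3p probe had 0.885 times the net intensity of the miR-23a-3p probe on the germ-free array and 0.983 times on the SPF array. The miR-27b-3p probe had 0.671 times the net intensity of the miR-27a-3p probe on the germ-free array and 0.723 times on the SPF array. Such ratios also carry the capture strength of each probe, so they do not rank the clusters, and only their shift between the arrays bears on the groups. Capture of the paralog's strand was not tested, so a small shift does not show that both clusters changed alike. Over the 11 pairs of a and b paralogs with every net intensity above 500, the absolute difference ranged from 0.02 to 0.26 with a median of 0.12. Of these pairs, 5 differed at least as much as miR-23 and 7 at least as much as miR-27, both pairs themselves included.

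The members of a cluster did not all have the same log2 value. miR-24-3p was lower than miR-23a-3p by 0.32 and than miR-27a-3p by 0.38 on the log2 scale, 1.78 and 2.12 times the technical SD of the difference. Against the b guides the gaps were 0.48 for miR-23b-3p and 0.49 for miR-27b-3p, 2.62 and 2.71 times that SD. The log2 values of the 735 brighter probes had an SD of 0.36, so gaps of this size were common between miRNAs on these arrays. Because the miR-24-3p probe pools both clusters, a contribution of each cannot be read from it. The miR-24 passengers, which have a probe each, were weak. miR-24-2-5p of the a cluster had a net intensity of 76.8 in germ-free and 82.8 in SPF cells, a log2 value of 0.11. miR-24-1-5p of the b cluster had 39.2 and 40.5, a log2 value of 0.05. Their estimated technical SDs, which add the spread of the blank spots, were 0.173 and 0.265, so neither value exceeded its own error with the scaling used. Without scaling they were 0.34 and 0.28, above those errors, and with local background subtraction 2.25 and 0.06.

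The other passengers with a value were lower or equal on the SPF array with this scaling. Without scaling miR-23a-5p, miR-27a-5p and miR-23b-5p were at 0.09, 0.08 and 0.23. miR-23a-5p, the brightest of them, had a net intensity of 199.7 in germ-free and 181.1 in SPF cells, a log2 value of -0.14 with an estimated technical SD of 0.137. miR-27a-5p had 15.3 and 13.8, and miR-23b-5p had 10.7 on both arrays. Their log2 values of -0.16 and -0.01 carry technical SDs of 0.65 and 0.87, and both lay under the level 2 SD above the mean of spots that hold no probe. On the scale of unsubtracted intensity that level was 165.8 (germ-free) and 202.2 (SPF), against 143.9 and 174.5 for miR-27a-5p and 139.3 and 170.9 for miR-23b-5p. The intensities of miR-23a-5p, miR-24-2-5p and miR-24-1-5p were above it. miR-27b-5p, at 8.99 and 3.74, was under the floor on both arrays and has no log2 value. The 5 passengers with a value had a median of -0.01, with 2 higher and 3 lower.

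The guide and passenger of miR-23a had log2 values of opposite sign, except without scaling, which put the passenger at 0.09, and with local background subtraction, which gave the guide no value and the passenger 0.65. The miR-23a-3p probe was 17.8 times as bright as the miR-23a-5p probe on the germ-free array and 25.1 times on the SPF array, a change of 0.50 on the log2 scale against a technical SD of 0.188. The arm ratios of miR-27a and miR-23b changed by 0.57 and 0.51, under their technical SDs of 0.66 and 0.88, both passengers being under the level of spots that hold no probe. A ratio between different probes also carries their capture strength, so it is compared between the arrays and not between precursors. An absolute change of the arm ratio at least as large as that of miR-23a was seen for 95 of the 465 precursors with both arms above the floor on both arrays (20.4%), with a median absolute change of 0.25. The miR-24 arm ratios changed by -0.08 against miR-24-2-5p and by -0.02 against miR-24-1-5p, within technical SDs of 0.216 and 0.295.

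**Figure D3:**
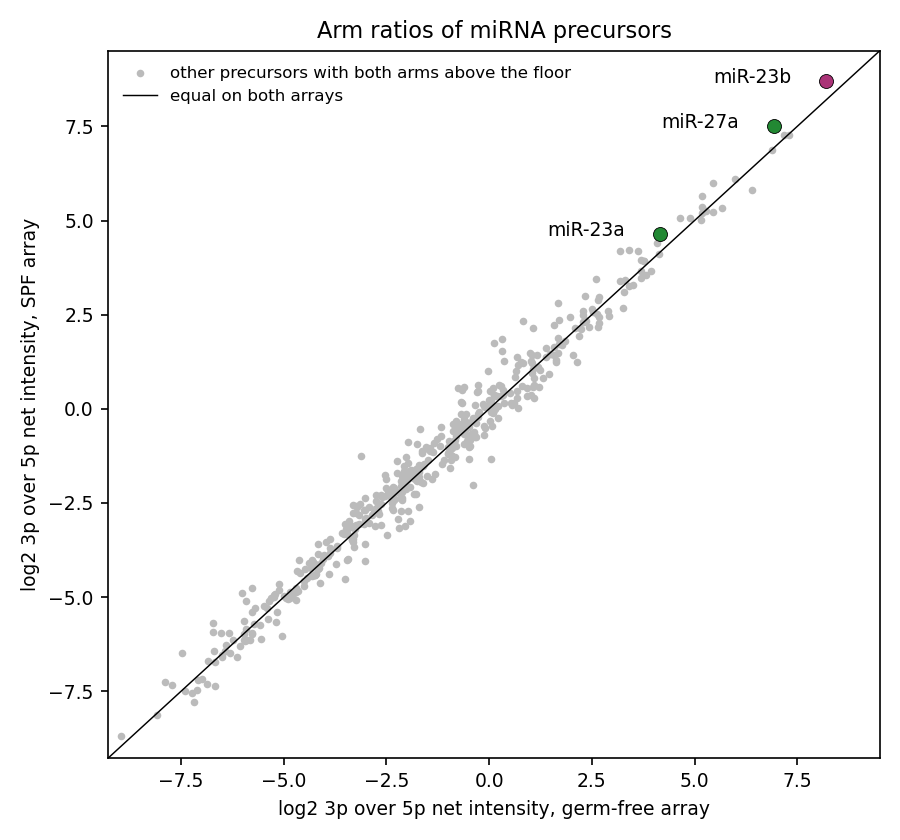
Log2 ratio of 3p over 5p net intensity in germ-free (x axis) and SPF cells (y axis) for the 465 precursors with both arms above the floor on both arrays, 1 array per group. miR-23a, miR-27a and miR-23b lie above the line of equal ratios by 0.50, 0.57 and 0.51, and the position along the line also carries the capture strength of each probe.

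The miRNAs that overlap these hairpins and the strands of miR-128, whose 3p seed overlaps that of miR-27, showed no common direction. Mir3074-2 and Mir3074-1 are annotated on the minus strand opposite Mir24-2 and Mir24-1, and miR-3074-5p is complementary to miR-24-3p over 20 bases. The net intensities of miR-3074-5p were 28.1 in germ-free and 34.97 in SPF cells (log2 value 0.31). miR-3074-1-3p had 42.8 and 47.3 (0.14), and miR-3074-2-3p had 19.8 and 17.1 (-0.21). These probes were dim beside miR-24-3p. The intensities of miR-3074-5p (156.7 in germ-free and 199.5 in SPF cells) and miR-3074-2-3p (148.3 and 178.5) were under the level of spots that hold no probe. That of miR-3074-1-3p was above it on both arrays. miR-128-3p, whose seed is that of miR-27 shifted by a base, shares a run of 8 bases with miR-27a-3p.
miR-128-3p: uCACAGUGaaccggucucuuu
Its net intensity was 80.0 in germ-free and 59.4 in SPF cells (-0.43), opposite in sign to the miR-27 guides. The passengers miR-128-1-5p and miR-128-2-5p were at 0.01 and -0.25. Across the 6 probes 3 were higher and 3 lower, with none at 1.5-fold and a median of -0.10. That median was 0.14 without scaling and 0.22 with local background subtraction, each with 4 higher and 2 lower.

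The seed of miR-24-3p, GGCUCAG, is also found in miR-5124b, miR-6369, miR-6410 and miR-6413. All were dim, with net intensities of 98.0 in germ-free and 110.4 in SPF cells for miR-6410, the brightest of them (log2 value 0.17). miR-6369 was at 0.37 and miR-5124b at -0.43. miR-6413 did not reach the floor in germ-free cells and was at 0.78 or more.

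The probes nearest to each guide in log2 net intensity over the 2 arrays, a likeness that rests on 2 values, were miR-7687-5p and miR-6914-5p for miR-23a-3p, with log2 values of 0.39 and 0.30. For miR-23b-3p they were miR-3473e (0.58) and miR-3473b (0.56), for miR-27a-3p miR-6924-5p (0.22) and miR-5128 (0.37), for miR-27b-3p miR-3102-5p.2-5p (0.25) and miR-6935-5p (0.23), and for miR-24-3p miR-7052-5p (0.04) and miR-7036a-5p (-0.05). None of these nearest probes was a member of the clusters.

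Other miRNAs that act in T helper and regulatory T cells went mostly the other way from the miR-23 and miR-27 guides. Of 18 such probes, all above the floor on both arrays, 13 were lower and 5 higher on the SPF array, with a median of -0.35 (0.06 with local background subtraction), where 57.6% of all 1471 probes were lower. At least 1.5-fold lower were 5 of them, including miR-150-5p, which represses Myb in mature lymphocytes, at -1.31, and miR-10a-5p at -1.13, where 7.61% of all probes were. At least 1.5-fold higher were miR-182-5p at 1.31 and miR-21a-5p at 0.96, where 4.62% of all probes were.

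Markers of some cell types differed between the arrays, where 42.4% of all 1471 probes were higher and 57.6% lower on the SPF array. The epithelial markers (the miR-200 family, miR-192-5p, miR-194-5p and miR-215-5p) were higher on the SPF array in 8 of 8 probes, from 1.09 to 1.62, and their summed net intensity was 5458 in germ-free and 14529 in SPF cells. The lymphocyte markers were lower in 4 of 5 probes, from -1.31 to 0.31, with sums of 21152 and 9237. Most of each sum came from miR-150-5p, with a net intensity of 18699.5 in germ-free and 7552 in SPF cells. The lower probes miR-150-5p, miR-155-5p and miR-181a-5p are also on the T helper and regulatory T cell list above. The pan-leukocyte miR-142a-5p and miR-142a-3p were at -0.66 and -1.01 and the myeloid miR-223-3p at 0.74. The endothelial list had 4 of 5 probes above the floor on both arrays, all 4 higher, from 0.08 (miR-130a-3p) through 0.25 (miR-126a-3p) and 0.81 (miR-221-3p) to 1.25 (miR-222-3p). miR-126a-5p was under the floor on the SPF array, at -1.38 or lower. The endothelial sums were 509.7 and 748.6. The defining endothelial marker miR-126a-3p was dim on both arrays, with net intensities of 66.8 and 79.5. The stromal and smooth muscle list was higher in 3 and lower in 2 of 5 probes, from -0.34 to 0.45 with sums of 1452 and 1375, and the erythroid list was lower in 3 of 3 probes, from -0.77 to -0.10 with sums of 5669 and 4694. Most of each erythroid sum came from miR-451a, at 5447 in germ-free and 4505 in SPF cells. When local background was subtracted, the lymphocyte median turned from -0.59 to 1.22 (2 of 5 probes with a value). That of the myeloid and pan-leukocyte list turned from -0.66 to 0.45. The endothelial median turned from 0.53 to -0.14 (3 probes with a value) and the erythroid median from -0.27 to 0.38. The epithelial median went from 1.31 to 0.78, where 5 of 8 probes had a value, 4 higher and 1 lower. The part of these markers in the values of the miR-23, miR-27 and miR-24 probes was not tested. In a bulk isolate, fewer cells of a type and less of a miRNA per cell cannot be told apart.

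The files give a local background beside each spot. On the germ-free array the local background exceeded the spot's own signal for miR-23a-3p (3837 against 3679), miR-23b-3p (4185 against 3269) and miR-27b-3p (1524 against 1386). On the SPF array it was 46.3%, 39.9% and 37.8% of the signal at those spots. Its own level there was 2547, 2161 and 866.1, lower than on the germ-free array. For miR-27a-3p the local background was equal on the arrays, at 1230 on both, and for miR-24-3p it was 4566 in germ-free and 5690 in SPF cells. With local background subtracted, miR-23a-3p, miR-23b-3p and miR-27b-3p had no value, miR-27a-3p was at 0.80 and miR-24-3p at -0.39, and repeated control spots spread by an SD of 1.30.

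**Figure D4:**
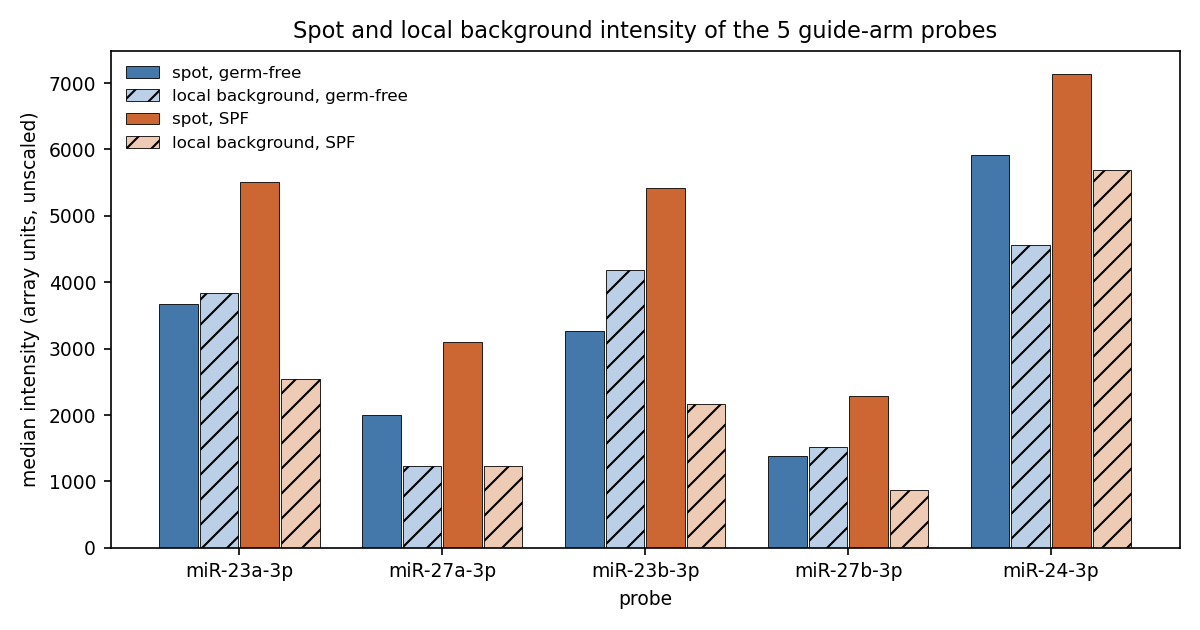
Median spot intensity (filled bars) and median local background (hatched bars) in unscaled array units, for the 5 guide probes in germ-free and SPF cells (1 array each, no error bars). On the germ-free array the local background of miR-23a-3p, miR-23b-3p and miR-27b-3p stands above the spot itself, and on the SPF array it stands below the spot for all 5.

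The 4 miR-23 and miR-27 guides kept a positive log2 value under every setting that gave one. Over the 12 alternative settings the values ran from 0.27 to 0.59 for miR-23a-3p, 0.42 to 0.74 for miR-23b-3p, 0.44 to 0.76 for miR-27b-3p and 0.33 to 0.80 for miR-27a-3p. The gap of each of these guides above miR-24-3p was 0.20 or more wherever both had a value. A single factor for a whole array or another floor cannot change this gap, so those settings do not test it. With each block's median subtracted the gaps ran from 0.20 to 0.42, where the scaling used gave 0.32 to 0.49. The lowest was then little above the technical SD of 0.182 for a difference.

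**Figure D5:**
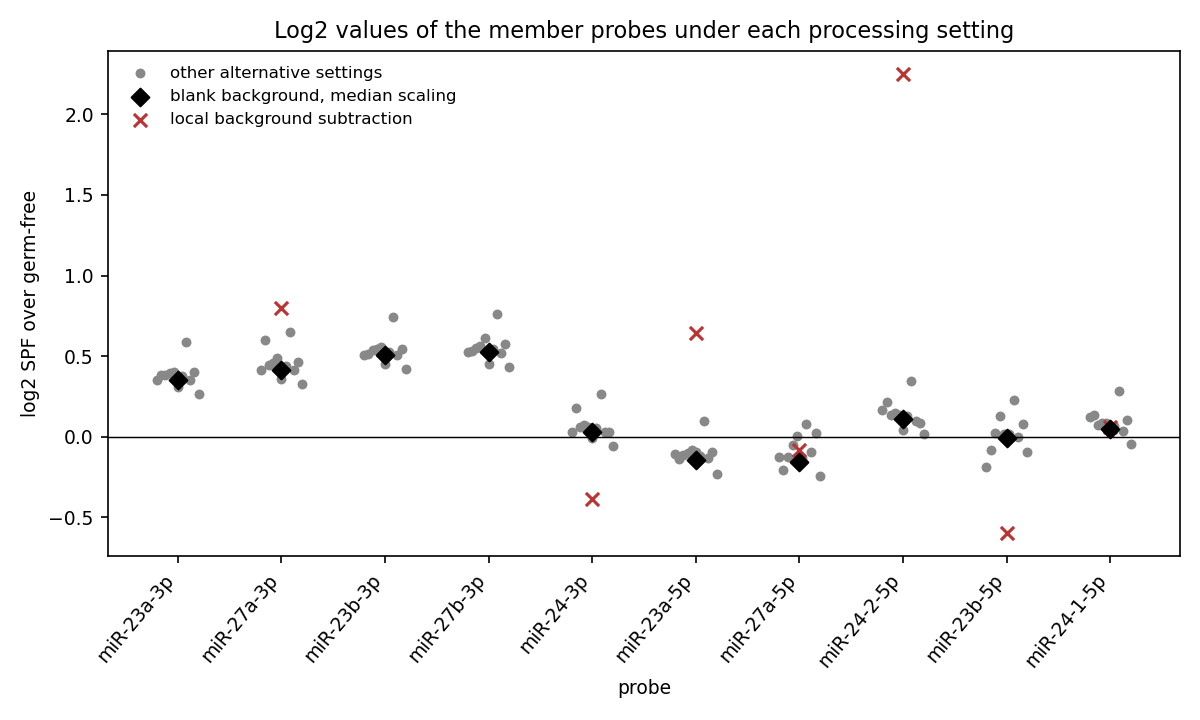
Log2 SPF over germ-free (y axis) of the 10 member probes with a value (x axis), with the blank background and median scaling as diamonds, local background subtraction as crosses and each other alternative setting as a grey point. The diamonds of miR-23 and miR-27 guides lie between 0.35 and 0.53, while miR-24-3p and the 5p probes lie on both sides of 0 or near it.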

How the data were processed

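Total RNA was labelled with Hy5 and hybridised to miRNA arrays, 1 per group, per the labels. The deposited intensity values are, per the file headers, median spot and median local background intensities for 3200 spots, read at 3 gains. Platform, miRBase release and scanner: not given in the sources used here. Group membership came from the sample titles. The mean of 896 (germ-free) and 895 (SPF, 1 spot marked NG left out) blank spots, 128.5 and 158.3, was subtracted, and arrays were scaled to an equal median. Of 1900 probes, 1539 and 1511 were above the floor. A value under the floor on 1 array was set to the floor and gives a bound. The technical SD of weak probes adds the blank SDs (4.53 and 5.33). Counting used a fold of 1.5, with 2 as an alternative.

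The alternatives were other scalings (none, quantile, loess with span 0.4, equal total, spike controls, block medians), other backgrounds (none, local, blank spots of the own block), a pseudocount equal to the floor, a floor from spots without a probe and no floor. The spike, block median and own-block settings were chosen after seeing the data. The named miRNAs are all member probes, the 2 probes nearest each guide, the neighbour and offset-seed list, and from the T cell list the 4 largest. The seed sharers of miR-24-3p were added after their values were seen. The members and lists were chosen with earlier results of these data known. The procedure was tested on simulated arrays, but only probes well above the floor were scored there. Most passengers here were too dim to be covered by that check. Python 3.11.15, NumPy 2.4.6, pandas 2.3.3, statsmodels 0.14.6 and matplotlib 3.10.9 were used. The number of arrays limits the precision.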

Additional observations from a re-analysis of the deposited data

How the results depend on the processing

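Unscaled values shifted the median shared probe from -0.06 to 0.18, and scaling on the spike controls shifted it to -0.15. The median of the 5 guides, 0.42, was 0.65 without scaling and 0.21 with local background subtraction, where 2 guides had a value. The median of the members above the floor on both arrays, 0.08, was 0.31 without scaling and 0.27 with a floor set from spots that hold no probe, which left out miR-27a-5p and miR-23b-5p, and it was -0.013 when spike controls set the scale and 0.031 when no background was subtracted. The number of members at least 1.5-fold higher, 0, was 4 without scaling, the miR-23 and miR-27 guides (beside 12.1% of all shared probes). It was 3 with local background subtraction, namely miR-27a-3p, miR-23a-5p and miR-24-2-5p (beside 15.7%). With loess scaling it was 1 (miR-27b-3p, beside 5.71%), and with the block median correction 1 (miR-27a-3p, beside 4.89%). The number at least 1.5-fold lower, 0, was 1 with local background subtraction (miR-23b-5p at -0.60, beside 13.9% of all shared probes) and 1 without a floor (miR-27b-5p, beside 12.1%). Of 72 recomputed summary values, 62 stayed within the technical SD or within 1.5 times the count, and of 115 single-probe values 102 did. Some of the 62 could not move. A single factor for a whole array or another floor leaves the b minus a differences unchanged, and no member under 1.5-fold can pass 2-fold. The b minus a differences had no value with local background subtraction and that of miR-27 turned to -0.07 with the block median correction. For other moves the cause was not tested. No paired analysis was possible because each group has 1 array. The passengers are limited by signal near the blank spots.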

Other observations

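Local background above the spot's own signal was more frequent on the germ-free array among bright probes in general. Of 313 miRNA probes with an intensity above 500 on both arrays, 29 (9.27%) had it in germ-free and 5 (1.60%) in SPF cells. Of the 5 guide probes described above, 3 are among the 29 and none among the 5.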
